A study of Mus musculus with 32 samples.

Results

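The 7 genes described here, Mbp, Mobp, Mal, Cnp, Mag, Mog and Cldn11, encode proteins of the myelin sheath, and they were taken by gene symbol from a table of 25697 array probes for 18138 genes. Together they had 14 probes, namely 3 each for Mbp and Mobp, 2 each for Mal, Cnp and Mog, and 1 each for Mag and Cldn11. All 14 probes were detected on all 32 arrays. mRNA from the FCtx, the frontal cortex, of 32 female mice was measured, with 1 Illumina MouseRef-8 v2.0 array for each mouse. The mice were F1 hybrids, for which the labels name the cross C57BL/6J x FVB/NJ and the Methods name both directions of it. They were treated as young adults, and their exact age was not given. For 20 days, 20 ethanol-treated mice chose between water and 20% ethanol in drinking-in-the-dark sessions, and 12 control mice received no treatment. The dissection took a dorsal piece of cortex above the white matter of the forceps minor. White matter such as this tract is rich in oligodendrocytes.

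The 32 arrays lay on 4 chips of 8 arrays. Chips 1 and 2 held 8 ethanol-treated mice each, chip 4 held 8 controls, and chip 3 held 4 ethanol-treated mice at the odd positions A, C, E and G with 4 controls at the even positions B, D, F and H. Treatment and chip therefore cannot be told apart on chips 1, 2 and 4, nor treatment and position on chip 3. Between 9480 and 11544 probes were detected on an array, and arrays correlated with each other at 0.973 to 0.994 over the tested probes. One array, that of ethanol-treated mouse 13 on chip 1, stood apart in the genes described here, and results that rest on it are given with and without it. The array of control mouse 66 on chip 4 had the fewest detected probes.

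Oligodendrocytes wrap axons in many layers of their own membrane, which insulate the axon and let impulses travel fast. In compact myelin the cytoplasm between the layers is squeezed out by basic proteins, while adhesion and junction proteins hold the layers to each other and to the axon. Myelin genes are switched on together as an oligodendrocyte precursor matures, under transcription factors that include Sox10 and Myrf. In a piece of cortex their summed mRNA also depends on how many oligodendrocytes the piece holds. In bulk samples such as these, fewer oligodendrocytes and less myelin mRNA in each of them cannot be told apart.

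Values are given as normalized log2 signals, on which a step of 1 is a doubling in signal, and changes are the ethanol mean minus the control mean with its SE. Each gene is described by its brightest tested probe unless another is named, and a probe is named by the base of its transcript at which it starts. Levels of different probes are not compared, because each probe has its own brightness. Mbp, the basic protein without which central myelin does not compact, was read by its probe from base 2211 with a mean of 13.40 over the 32 arrays. The junction protein Cldn11, which forms the tight-junction strands between myelin layers, had a mean of 12.27, and Mag, an adhesion protein on the layer that faces the axon, one of 10.84. Cnp, a cyclic nucleotide phosphodiesterase of the cytoplasmic channels in myelin, had a mean of 9.82 at its probe from base 2010. Mal, a raft proteolipid that helps to sort proteins to the myelin membrane, was read from base 754 at 9.13, and Mobp, a second basic protein of compact myelin, from base 240 at 8.96. Mog, an immunoglobulin-like protein on the outer surface of the sheath, had a mean of 8.87 at its probe from base 845. These genes lie on different chromosomes, Mal on 2, Cldn11 on 3, Mag on 7, Mobp on 9, Cnp on 11, Mog on 17 and Mbp on 18.

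The 250 bases before the start sites of these genes were searched on both strands for motifs of the factors Sox10 and Myrf, named above. The letters searched as the SOX motif were ACAAAG, on either strand. The Myrf motif was searched with the letters CTGGCAC on either strand. A second form of it, searched in the same way and counted as the same motif, had the letters CTGGTAC on either strand. In the windows shown, the motifs did not overlap. The windows come from RefSeq on the build GRCm38.p6, and 8 windows of 6 of the 7 genes were searched. The promoter of Mbp was not analysed here. Among 27025 windows, 1 for each gene of the RefSeq table, a SOX motif stood in 16.5% and a Myrf motif in 5.86%. The Mobp window held 6 SOX motifs, more than any other of these windows. The Cnp window held 1 of each motif, the Mog window held 1 Myrf motif, and 2 of the 3 Mag windows held 1 of each. None was in the windows of Mal and Cldn11. The 3 windows below show these motifs in capitals, 5′ to 3′ along the gene, since Mobp held the most and Cnp and Mog are the genes whose change on chip 3 passed the test. A match is a match of letters only.
Mobp, chr9:120149492-120149741, plus strand: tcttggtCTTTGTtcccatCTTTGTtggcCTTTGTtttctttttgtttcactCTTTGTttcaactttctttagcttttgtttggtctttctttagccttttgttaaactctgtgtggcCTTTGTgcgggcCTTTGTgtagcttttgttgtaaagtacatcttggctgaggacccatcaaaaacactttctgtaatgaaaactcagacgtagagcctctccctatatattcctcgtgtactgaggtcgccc
Cnp, chr11:100574689-100574938, plus strand: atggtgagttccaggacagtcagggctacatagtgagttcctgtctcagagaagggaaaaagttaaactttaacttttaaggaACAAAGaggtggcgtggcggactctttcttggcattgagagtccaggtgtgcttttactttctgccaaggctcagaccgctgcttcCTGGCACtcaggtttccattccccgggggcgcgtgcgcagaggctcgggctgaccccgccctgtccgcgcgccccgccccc
Mog, chr17:37023399-37023648, minus strand: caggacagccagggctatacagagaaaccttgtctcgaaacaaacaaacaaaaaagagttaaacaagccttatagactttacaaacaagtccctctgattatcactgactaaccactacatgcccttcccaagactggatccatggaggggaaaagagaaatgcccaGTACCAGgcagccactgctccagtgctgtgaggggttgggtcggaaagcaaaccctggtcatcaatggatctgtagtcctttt

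The myelin genes differed more between mice than most genes did. Within groups and over all 32 arrays alike, a mouse that was high for one of them tended to be high for the others. Pooled within each combination of treatment and chip, the SD between mice ran from 0.225 for Cldn11 to 0.376 for Mobp. Its median was 0.296 over the 7 genes against 0.118 over the 7926 genes tested. Without mouse 13 the median was 0.233. Over the 32 arrays the 21 pairs of these genes correlated at r = 0.64 to 0.89, with a median of 0.80. The median was 0.72 without mouse 13 and 0.65 without the 2 arrays that lay farthest from the median in the mean standardized level of the 7 genes, and it was 0.82 over the 12 controls alone. After centring within each combination of treatment and chip the median stood at 0.83. These values describe the arrays and carry no test, since all genes of an array share its RNA.

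Mouse 13 was the highest of all 32 mice on 11 of the 14 probes and the highest or the second highest on 13. Its Mbp level was 14.24 where the other 7 ethanol-treated mice of chip 1 lay between 13.09 and 13.49, and its Mag level was 12.02 where they lay between 10.48 and 10.89. Control mouse 55 on chip 3 was the highest on both Mog probes, at 9.69 and 9.56, and came second to mouse 13 on Mbp, Cnp and Cldn11. At the low end were ethanol-treated mice 49 and 50 of chip 3 and mouse 11 of chip 1. Of 11 striatal markers 3 had a tested probe (Ppp1r1b, Rgs9 and Drd1a), and mouse 13 had the highest summed level of them, at 11.82 on the log2 scale against 10.61 to 10.81 in the other 7 mice of its chip. Next came control mouse 65 at 11.21 and control mouse 55 at 11.06. The part of these markers in the myelin levels of mice 13 and 55 was not tested.

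**Figure D1:**
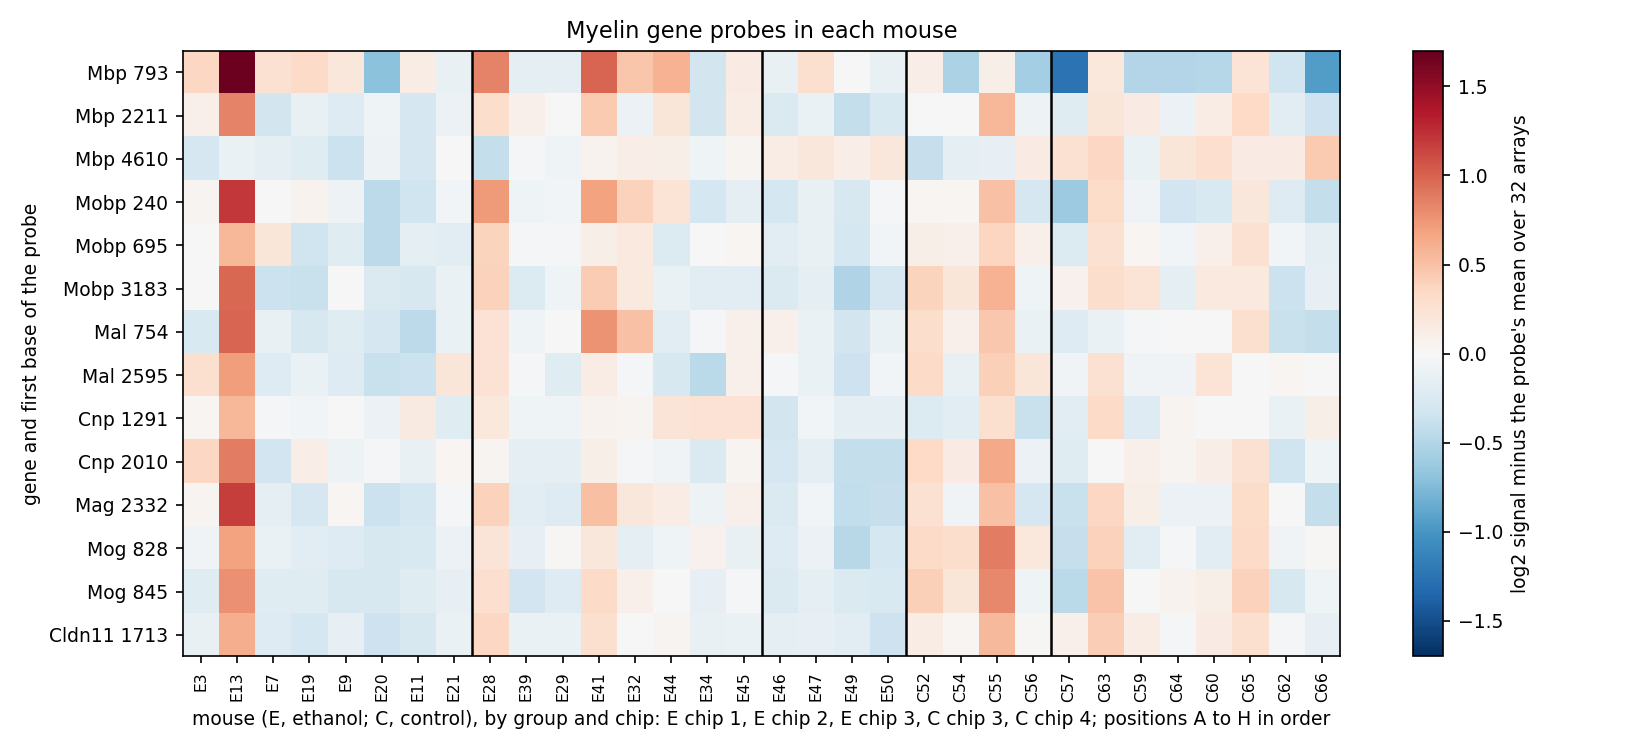
Normalized log2 signal of the 14 probes (rows) in the 32 mice (columns, ethanol-treated E and control C with the mouse number, grouped by treatment and chip), as the difference from each probe's mean over the 32 arrays. The column of ethanol-treated mouse 13 is the highest in 11 of the 14 probes, control mouse 55 is high on most of them, and the Mbp probe from base 4610 does not follow the others.

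Over all arrays, which is the comparison that the study made, no myelin gene passed an FDR of 1% by its brightest probe in limma, and 2 of the 7 had an unadjusted p below 0.05. Over all genes, 624 of 7926 (7.87%) passed, with 238 higher and 386 lower in ethanol-treated mice, and 2451 had an unadjusted p below 0.05. The median change of the 7 genes was -0.061, beside -0.007 for all genes, with 2 above 0 and 5 below. The split of calls over all genes depends on the scaling, since median scaling gave 57 higher and 10 lower in place of 238 and 386. No myelin gene separated the 20 ethanol-treated mice from the 12 controls without overlap, as 1 of the 7926 genes did among those lower with ethanol (0.0126%).

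The gene that came nearest to the threshold was Cldn11. Its level in the 20 ethanol-treated mice ran from 11.91 through a median of 12.14 to 12.88, and in the 12 controls from 12.13 through 12.37 to 12.82. The groups overlapped, but 17 of the 20 ethanol-treated mice lay below the control median. The change was -0.207 ± 0.0759 (SE, adjusted p = 0.0513 by limma), by which the signal fell by 13.4%. Without mouse 13 it was -0.243 with an adjusted p of 0.00877, which is the only one of the 7 genes past an FDR of 1% in that fit, where 7.33% of genes passed. Without control mouse 66 it was -0.231 with an adjusted p of 0.0384.

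Mog had a median of 8.67 in ethanol-treated mice (range 8.55 to 9.64) and 8.95 in controls (8.41 to 9.69), a change of -0.212 ± 0.0996 (adjusted p = 0.135 by limma). Its 2 probes share 33 of their 50 bases and gave nearly the same change, -0.21 at the probe from base 828. Cnp changed by -0.122 ± 0.0907, Mbp by -0.061 ± 0.0936 and Mag by -0.023 ± 0.113. Mal, at 0.019 ± 0.109, and Mobp, at 0.146 ± 0.123, had the other sign. Of these 6 genes Mog had an unadjusted p below 0.05, and its change without mouse 13 had an adjusted p of 0.0371 by limma. The SD between ethanol-treated mice was 0.27 to 0.41 for the 6. Without mouse 13 the changes of the 7 genes had a median of -0.106.

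**Figure D2:**
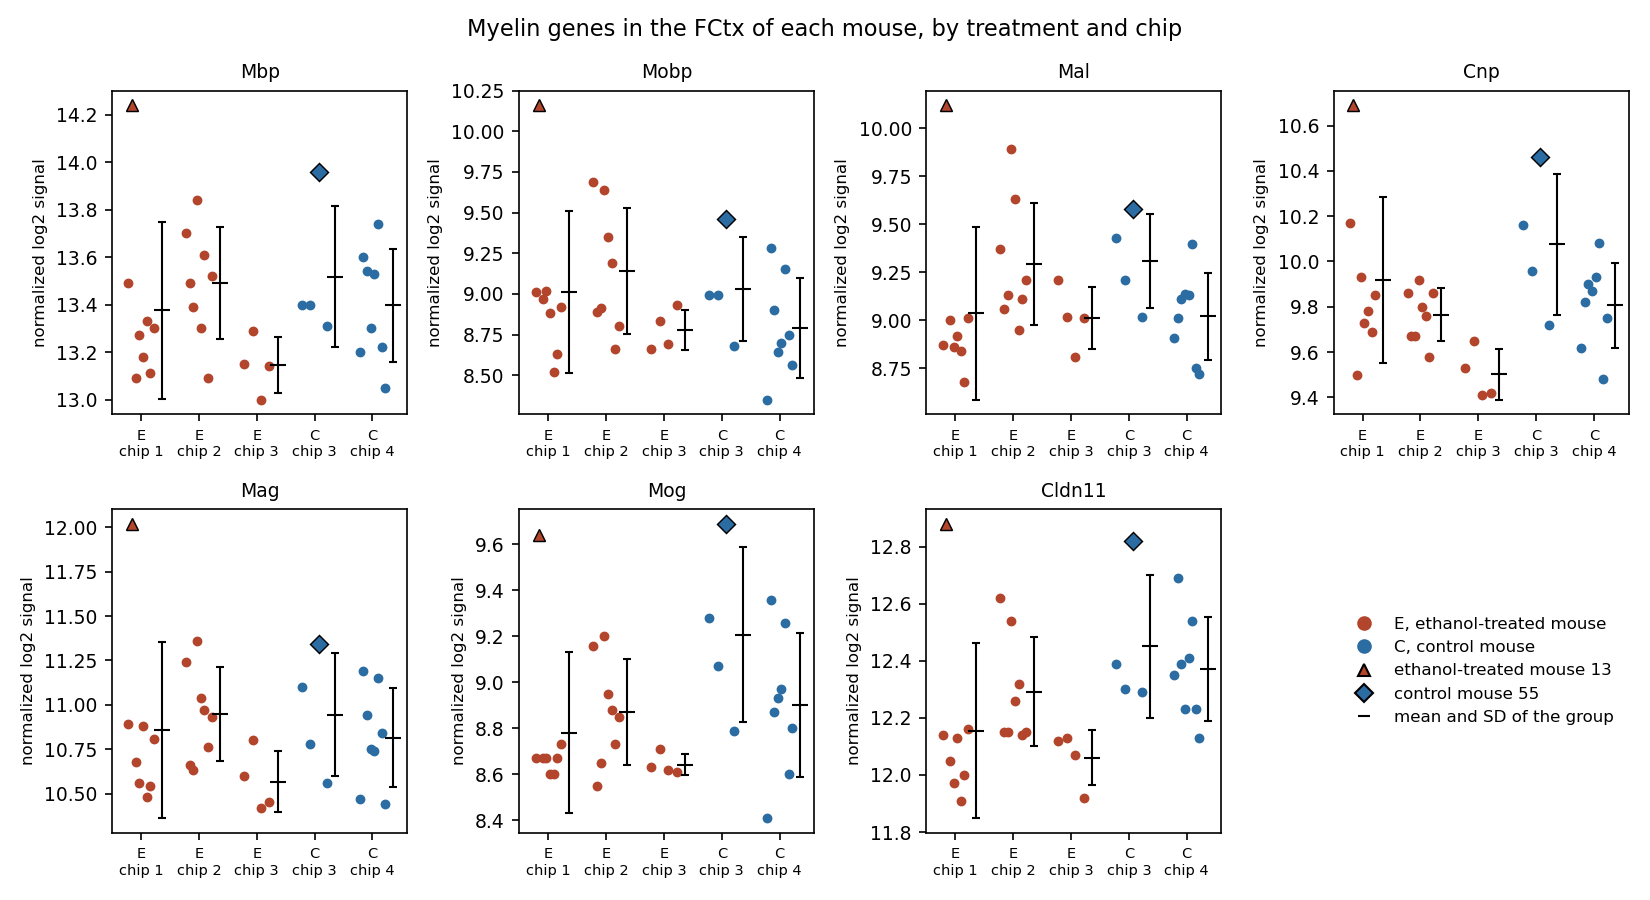
Normalized log2 signal of each mouse for the brightest probe of the 7 genes, by treatment and chip (8, 8, 4, 4 and 8 mice from left to right), with the mean and SD of each group beside the points. Ethanol-treated mice of chip 3 lie below the controls of the same chip for Mbp, Cnp, Mog and Cldn11 without overlap, while those of chips 1 and 2 overlap the controls of chip 4 for every gene.

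Chip 3 was the only chip with both groups, and there the mean of the 4 ethanol-treated mice lay below that of the 4 controls for all 7 genes. At an FDR of 1%, 2 of the 7 passed in limma, Cnp and Mog, both lower, where 3.46% of all genes passed and 1.8% passed as lower. At an FDR of 10% with at least a 1.1-fold change, 6 of the 7 passed, all lower and all but Mobp, where 8.4% of all genes passed as lower. The median change was -0.376, beside 0.005 for all genes.

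Cnp stood at 9.53, 9.65, 9.41 and 9.42 in ethanol-treated mice 46, 47, 49 and 50, and at 10.16, 9.96, 10.46 and 9.72 in control mice 52, 54, 55 and 56. The lowest control, mouse 56, lay just above the highest ethanol-treated mouse. The change was -0.571 ± 0.114 (adjusted p = 0.00464 by limma), by which the signal fell by 32.7%.

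Mog stood at 8.63, 8.71, 8.62 and 8.61 in the same ethanol-treated mice and at 9.28, 9.07, 9.69 and 8.79 in the same controls. The ethanol-treated mice were nearly level, with an SD of 0.05, whereas the controls spread with an SD of 0.38. The change was -0.564 ± 0.126 (adjusted p = 0.00942 by limma), and the overlapping probe from base 828 gave -0.691 ± 0.117 (adjusted p = 0.00185 by limma).

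Both calls were near the threshold. Leaving out any of the mice 46, 49, 50, 52, 54 and 55 left 0 of the 7 genes past an FDR of 1%. Leaving out mouse 47 left 1 and leaving out mouse 56 left 2. Calls over all 7926 genes fell as well without control mouse 55, to 55 higher and 45 lower from 131 and 143. Without control mouse 55 the change of Cnp was -0.443 (adjusted p = 0.0143 by limma), that of Mog -0.402 (adjusted p = 0.0206 by limma), and the median of the 7 genes -0.245. All 7 genes stayed below 0 in each of these 8 fits.

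Of the other genes on chip 3, Mbp stood at no more than 13.29 in any ethanol-treated mouse and at 13.31 to 13.96 in controls, a change of -0.373 ± 0.111 (adjusted p = 0.0412 by limma). Cldn11 stood at 11.92 to 12.13 against 12.29 to 12.82, a change of -0.39 ± 0.0976 (adjusted p = 0.0184 by limma). With Cnp and Mog, these made 4 of the 7 genes whose groups did not overlap, each lower with ethanol, beside 7.38% of all genes. Mag (-0.376 ± 0.126), Mal (-0.299 ± 0.105) and Mobp (-0.255 ± 0.117) overlapped between groups, though all 4 ethanol-treated mice lay below the control median for each. The Mobp probe from base 3183 stood at 8.34 to 8.69 against 8.78 to 9.44 and passed the test, at -0.575 ± 0.11 (adjusted p = 0.0038 by limma), but not without control mouse 55 (-0.468, adjusted p = 0.0146).

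**Figure D3:**
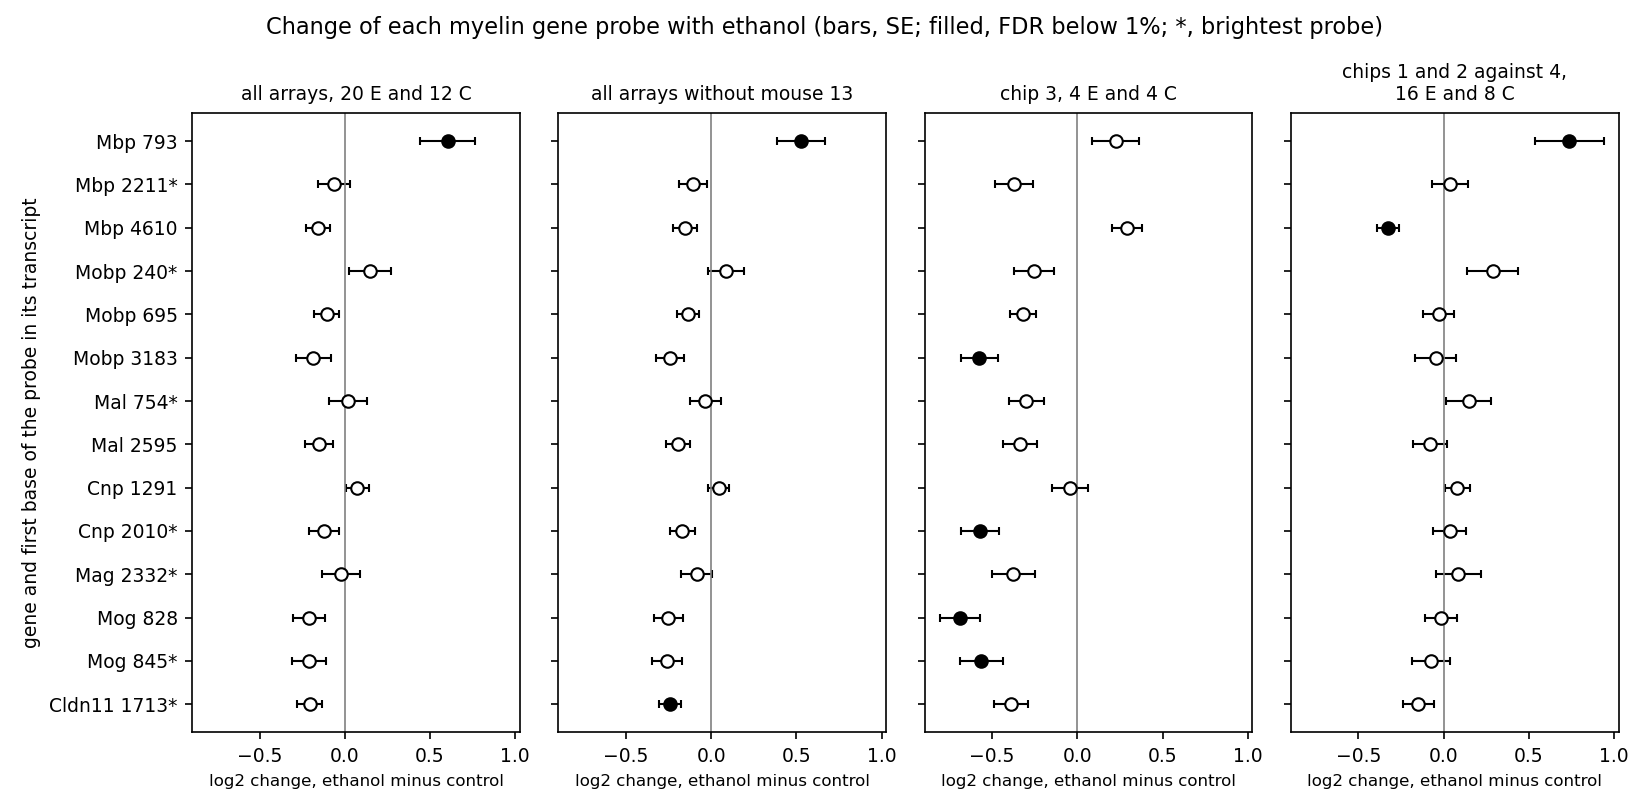
Change of each of the 14 probes with ethanol (log2, ethanol mean minus control mean, bars the SE) over all 32 arrays, without mouse 13, on chip 3 and on chips 1 and 2 against chip 4; filled circles pass an FDR of 1% and asterisks mark the brightest probe of a gene. On chip 3, 12 of the 14 probes lie below 0, and the other two are the Mbp probes from bases 793 and 4610.

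The 16 ethanol-treated mice of chips 1 and 2 and the 8 controls of chip 4 share no array with chip 3, and between them the estimates lay on both sides of 0, with 5 of the 7 above it. None of the 7 passed an FDR of 1% in limma and 0 had an unadjusted p below 0.05, although 11.1% of all genes passed an FDR of 1% and 2814 of 7926 had an unadjusted p below 0.05. The median change was 0.037, and -0.017 without mouse 13. The Cnp level with ethanol was 9.84 ± 0.27 (SD, n = 16) and that of controls 9.81 ± 0.19 (SD, n = 8), a change of 0.035 ± 0.0958. Mog changed by -0.073 ± 0.113, and Cldn11, the lowest of the 7 genes, by -0.148 ± 0.091. Mobp, the highest, changed by 0.287 ± 0.149 (adjusted p = 0.164 by limma).

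The difference between the change on chip 3 and that on the other chips was tested directly. All 7 genes had a lower estimate on chip 3, with a median difference of -0.464 beside 0.017 for all genes, but 0 of the 7 passed an FDR of 1% in limma, where 3.17% of all genes passed. An unadjusted p below 0.05 was found for 2 of the 7 and for 2041 of 7926 genes in all, much the same share. The difference was -0.607 ± 0.181 for Cnp (adjusted p = 0.028 by limma) and -0.491 ± 0.217 for Mog (adjusted p = 0.143 by limma). The probe of Mog from base 828 gave -0.673 ± 0.184 (adjusted p = 0.0166 by limma). For the other 5 genes the difference ran from -0.541 for Mobp to -0.243 for Cldn11.

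The controls of chip 3 stood above those of chip 4 by a median of 0.240 over the 7 genes (all genes -0.017). By the brightest probe, none of the 7 passed an FDR of 1% in limma and 0 had an unadjusted p below 0.05. Of all genes, 6.09% passed and 2310 of 7926 had an unadjusted p below 0.05. The Mog probe from base 828 stood higher in the controls of chip 3, by 0.433 ± 0.136 (limma, unadjusted p = 0.00297, adjusted p = 0.0279). The Mbp probe from base 4610 went the other way, at -0.351 ± 0.089 (adjusted p = 0.00688 by limma). Positions were compared within chips 1, 2 and 4, where treatment does not vary. The mean at even positions, which on chip 3 held the controls, lay above that at odd ones for all 7 genes, by a median of 0.162. Without mouse 13, which lay at an even position, the median was 0.055 and Cldn11 was at -0.002. Again 0 of the 7 passed an FDR of 1% in limma (3.32% of all genes did), while Mbp, at 0.205 ± 0.0951, and Mog, at 0.211 ± 0.0998, had an unadjusted p below 0.05. So did 2258 of all 7926 genes, much the same share as 2 of 7. With chip and position both in the fit over all arrays, the median change with ethanol was -0.238, or -0.347 without mouse 13, and 0 of the 7 genes passed an FDR of 1% in either fit, beside 0.0252% of all genes. The changes in the first of these fits were -0.402 for Cnp, -0.353 for Mog, -0.323 for Cldn11 and -0.169 for Mbp. With chip in the fit only chip 3 bears on treatment, and the other chips bear on position, so these changes add no further mice to the chip 3 comparison. Whether position had a part in the chip 3 result cannot be told apart from treatment within that chip.

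Probes of the same gene did not move alike, most clearly for Mbp. Each of its 3 probes carries a different type code in the deposited table, and the probe from base 793 lies 30.6 kb upstream of the brightest one in the genome. There the 20 ethanol-treated mice ran from 9.83 through a median of 10.69 to 12.19 and the 12 controls from 9.27 through 10.03 to 10.75. The groups overlapped, and 19 of the 20 ethanol-treated mice lay above the control median. This probe rose by 0.604 ± 0.162 (adjusted p = 0.00791 by limma), a signal 52% higher, and by 0.528 without mouse 13 (adjusted p = 0.00785 by limma). The call was lost without control mouse 66 (0.551, adjusted p = 0.0209 by limma), with chip as a random block (0.521, adjusted p = 0.12) or a fixed block (0.225, adjusted p = 0.742), with median scaling (adjusted p = 0.0236) and with normexp background correction (adjusted p = 0.0112). The change was 0.225 ± 0.137 on chip 3 (adjusted p = 0.312 by limma) and 0.738 ± 0.202 on the other chips (adjusted p = 0.00843 by limma, or 0.0175 with median scaling).

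The difference between this probe and the brightest Mbp probe was taken within each array and compared between groups. It was 0.67 higher in ethanol-treated mice (permutation test, two-sided, p = 2e-05, the smallest that 100000 resamples can give, adjusted p = 0.00048 over the 24 such comparisons). The values were 0.63 without mouse 13, 0.70 on chips 1 and 2 against chip 4, and 0.60 on chip 3. On chip 3 the exact permutation p was 0.029, the smallest that 4 against 4 mice allow (adjusted p = 0.057). Permutation p-values over all arrays, here and below, do not separate treatment from chip. Those on chip 3 do not separate treatment from position. The probe from base 793 thus read higher against the brightest probe with ethanol in each set of arrays.

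The third Mbp probe starts at base 4610 and lies 26.8 kb upstream of the brightest one. Over the 32 arrays it correlated at r = -0.20 with the mean of the other 6 genes, where the other 13 probes correlated at 0.58 to 0.94. It stood at 9.44 to 9.52 in the 4 ethanol-treated mice of chip 3 and at 8.94 to 9.47 in its 4 controls, a change of 0.291 ± 0.0868 (adjusted p = 0.0416 by limma). On chips 1 and 2 the 16 ethanol-treated mice ran from 8.93 to 9.44, all below the control median of chip 4, 9.56, a change of -0.327 ± 0.0664 (adjusted p = 0.000729 by limma), or -0.202 with median scaling (adjusted p = 0.158). The change thus had opposite signs in the 2 sets of arrays, and the difference of 0.618 ± 0.12 passed the test (adjusted p = 0.0015 by limma). The controls themselves differed at this probe by -0.351 ± 0.089 between chips 3 and 4 (adjusted p = 0.00688 by limma).

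Mobp showed a smaller split. Its probe from base 240 lies 68.1 kb upstream of that from base 3183, and the difference between them was 0.33 higher in ethanol-treated mice over all arrays (permutation test, adjusted p = 0.00064), 0.32 on chip 3 (exact permutation p = 0.029, adjusted p = 0.057) and 0.33 on the other chips. The probe from base 695 did not differ from that of base 3183 beyond the spread between mice over all arrays (0.08, permutation test, adjusted p = 0.39). For Cnp, whose probes lie 0.7 kb apart, the difference between the probe from base 1291 and that from base 2010 was 0.53 on chip 3 (exact permutation p = 0.029, adjusted p = 0.057) and 0.05 on the other chips. On chip 3 the dimmer Cnp probe changed by -0.044 ± 0.105, so that the call on Cnp rests on the brighter one. For Mal the difference between probes was 0.17 over all arrays (permutation test, adjusted p = 0.12).

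Probes that lie on the same transcript, as those of Cnp and Mal do, were also compared over all other genes. The probes compared above for Mbp and Mobp were designed on different transcripts of the gene, so these values are no measure for them. The Mbp probes from bases 793 and 4610 do share a transcript, and over all arrays they changed by 0.604 and -0.156. On chips 1 and 2 against chip 4 they changed by 0.738 and -0.327, and on chip 3 by 0.225 and 0.291. The Mobp probes from bases 240 and 695 share one too, and changed by 0.146 and -0.105 over all arrays. The differences within these pairs were not tested. Over the 1156 transcripts with several tested probes, the change at the probe nearest the 5′ end minus that at the probe nearest the 3′ end had a median of 0.015 over all arrays, with 57.3% of transcripts above 0. The median was 0.053 on chips 1 and 2 against chip 4 (66.1% above 0) and -0.043 on chip 3 (37.9%). Between even and odd positions it was 0.051 (71.5%). Over all arrays the 5th percentile of this difference was -0.17 and the 95th was 0.27. On chip 3 these percentiles were -0.32 and 0.27, where the difference was 0.53 for Cnp and 0.04 for Mal. Whether RNA integrity had a part in the differences between probes was not tested.

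**Figure D4:**
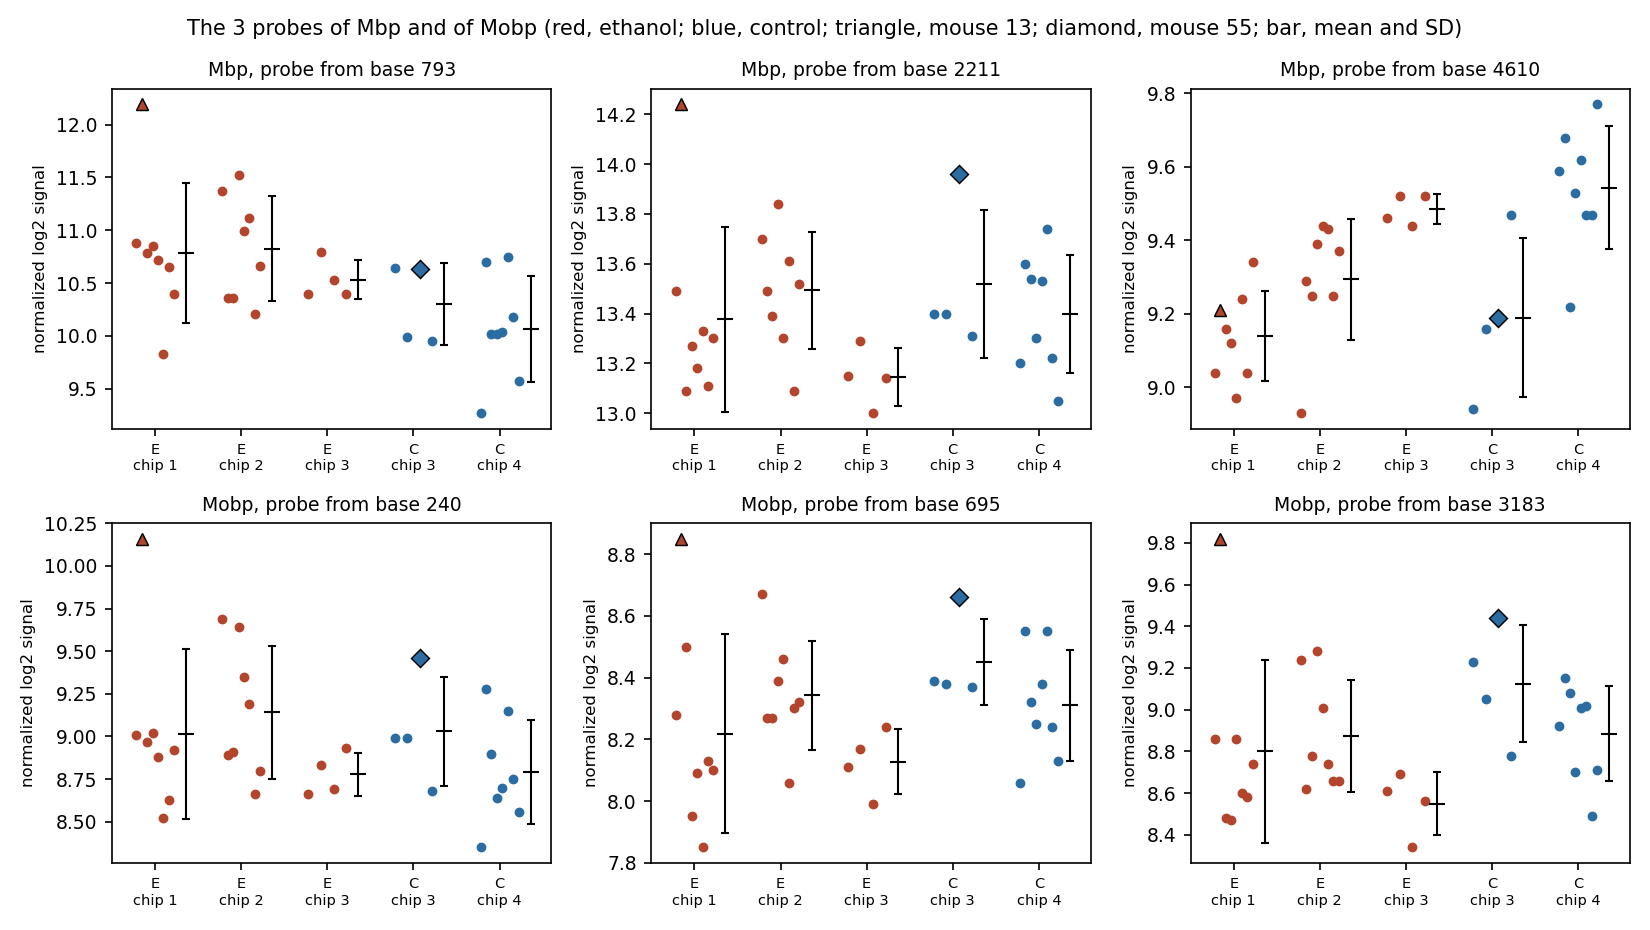
Normalized log2 signal of each mouse at the 3 Mbp probes (top) and the 3 Mobp probes (bottom), by treatment and chip, with the mean and SD of each group beside the points. The Mbp probe from base 793 is higher in ethanol-treated mice than in controls on average in both sets of arrays, whereas the probe from base 4610 is higher on chip 3 and lower on chips 1 and 2 against chip 4.

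A list of 38 other genes of myelin and mature oligodendrocytes had 24 with a tested probe. Over all arrays 1 of the 24 passed an FDR of 1%, beside 7.87% of all genes, and the median was -0.004. The gene was Car2, a carbonic anhydrase of oligodendrocytes, which rose by 0.33 (adjusted p = 4.7e-05 by limma). On chip 3, 22 of the 24 lay below 0, with a median of -0.183, and 1 passed, beside 3.46% of all genes. That 1 was Fa2h, the hydroxylase that makes the 2-hydroxy fatty acids of myelin lipids, which fell by 0.48 (adjusted p = 0.00754 by limma). The lowest of the list on chip 3 was Opalin at -0.56, followed by Fa2h and by Trf, the iron carrier transferrin, at -0.45. Without control mouse 55, 22 of the 24 lay below 0 on chip 3, with a median of -0.125, and 0 passed in limma, with 7 at an unadjusted p below 0.05, as were 1757 of all 7926 genes.

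On chips 1 and 2 against chip 4, 16 of the 24 lay above 0, with a median of 0.063. There 2 passed, both higher, Car2 at 0.42 and Tppp, which promotes microtubule assembly in oligodendrocytes, at 0.26. Of all genes, 11.1% passed in that comparison. Tppp also passed in the test of the difference between chip 3 and the other chips, at -0.46 (adjusted p = 0.00815 by limma), and between the controls of chip 3 and chip 4, at 0.39. In that order, 3.17% and 6.09% of all genes passed there. Between even and odd positions, Tppp (0.20) and Cryab (0.44), a small heat shock protein, passed as higher. Enpp2 (-0.23), an enzyme that makes lysophosphatidic acid, passed as lower. The median of the 24 was 0.073, and 3.32% of all genes passed.

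Genes of earlier stages of the lineage were read on chip 3 as well. Of 11 transcription factors of the lineage 3 had a tested probe, Olig1, Sox8 and Tcf7l2, which changed by 0.06, 0.06 and 0.11 there. Of 10 precursor genes 5 were tested, with a median of 0.097 and a range from -0.17 for Enpp6 to 0.25 for Bmp4, and 0 passed in limma, with 1 at an unadjusted p below 0.05, as were 2163 of all 7926 genes. On chips 1 and 2 against chip 4, 11.1% of all genes passed. There the precursor gene Gpr17, a receptor that marks cells about to mature, was the only 1 of these 8 genes to pass, and it fell by 0.26 (limma, adjusted p = 0.000573). Its change was 0.12 on chip 3 (adjusted p = 0.321), the difference from the other chips was 0.38 (adjusted p = 0.0102), and the controls of chip 3 lay at -0.23 from those of chip 4 (adjusted p = 0.0262). The peripheral myelin gene Pmp22 changed by -0.05 on chip 3 and 0.16 on the other chips. The difference between these lists and the 7 genes was not tested.

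**Figure D5:**
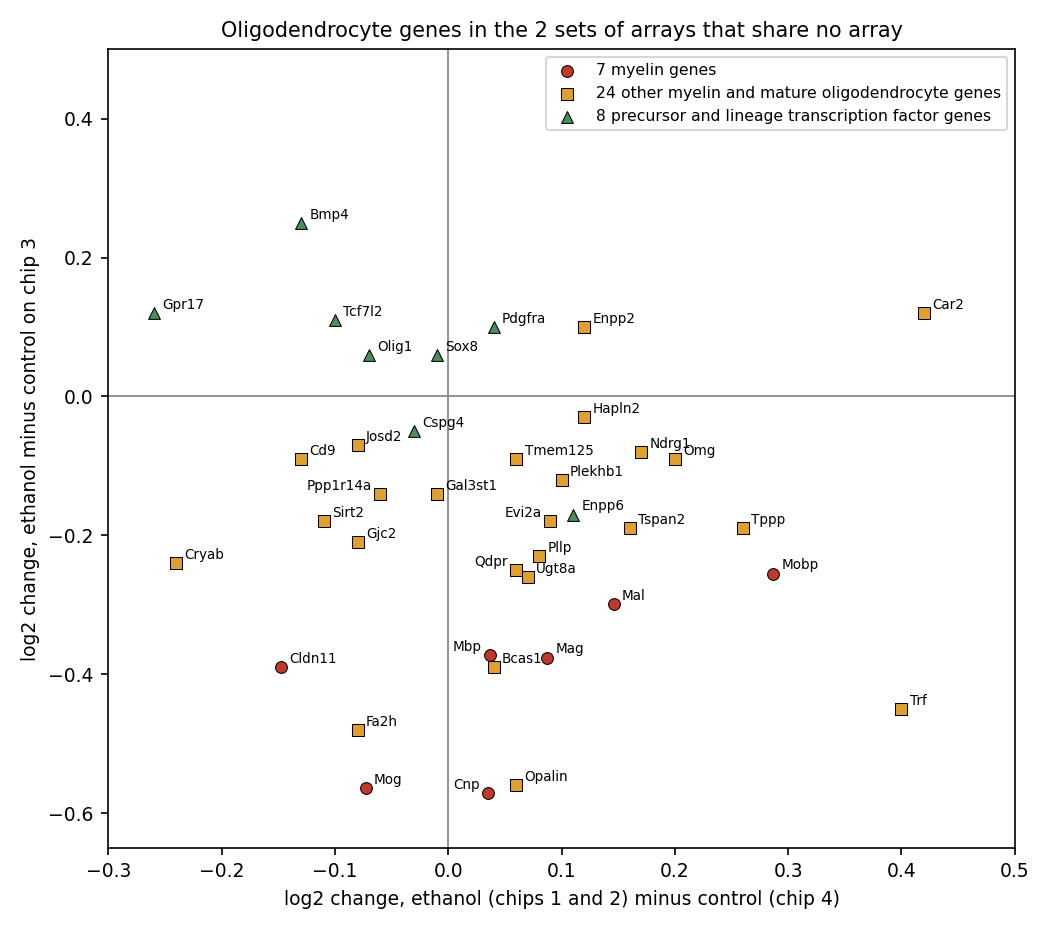
Change with ethanol on chip 3 (vertical, log2, 4 against 4 mice) against the change between chips 1 and 2 and chip 4 (horizontal, log2, 16 against 8 mice) for the 7 myelin genes, 24 other myelin and mature oligodendrocyte genes and 8 precursor and lineage genes. On chip 3 all 7 myelin genes and 22 of the 24 others lie below 0, whereas on the other chips 5 of the 7 and 16 of the 24 lie above 0.

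Markers of other cell types and regions were read on chip 3 beside these genes, where 3.46% of all genes passed an FDR of 1%. Of 8 olfactory bulb genes 5 had a tested probe, and that list had the highest median of the lists with 3 or more tested genes, at 0.281, with all 5 above 0 and 2 passing as higher, Pcdh21 at 1.5 and Doc2g at 0.75. Its summed level ran from 11.06 to 11.45 in the ethanol-treated mice of chip 3 and from 10.04 to 10.76 in its controls, against 9.85 to 12.22 and 9.82 to 11.73 on the other chips. The 3 striatal genes had a median of -0.235, and 1 choroid plexus gene, Aqp1, passed at 0.39. Of the 10 astrocyte genes 2 passed as higher (median 0.051), of the 7 neuronal genes 1 passed as higher (Gad1 at 0.59) and 1 as lower (Slc17a7 at -0.46, median -0.034), of the 9 endothelial genes 1 passed as higher (median 0.030), and of the 11 microglial and 3 blood genes 0 passed in limma, with 2 and 0 at an unadjusted p below 0.05 and medians of 0.033 and -0.057. The part of tissue makeup in the lower myelin levels of chip 3 was not tested.

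The 5 genes outside these lists that were most like the 7 myelin genes were sought by the correlation with their mean over the 32 arrays, after centring within each combination of treatment and chip, among 7836 genes. They were Prr18 (r = 0.88), Pdlim2 (0.86), Anln (0.85), Tac1 (0.76) and Glra2 (0.75), and without mouse 13 their values were 0.78, 0.71, 0.74, 0.64 and 0.69. The 7 genes themselves correlated at 0.85 to 0.95 with the mean of the others. On chip 3, Prr18 changed by -0.26 and Pdlim2 by -0.29, Anln by -0.09, Tac1, which encodes the precursor of substance P, by -0.06, and Glra2, a glycine receptor subunit, by -0.15. Their adjusted p-values there ran from 0.0215 to 0.671 by limma.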

How the data were processed

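The authors deposited a bead summary table of Illumina arrays that was not normalized. The intensities the authors deposited are mean bead signals per probe and array on a linear scale, and the deposited table also holds a detection p-value, a bead standard error and a bead number. The software behind these values is not given in the sources used here, and 0 columns of values lacked a sample. lumi and limma are named in the submitters' processing notes.

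A variance-stabilizing transform fitted from the bead standard errors and numbers, then quantile normalization, were computed in R 4.3.3, after the study's Methods. The tests covered 10187 of 25697 probes and 7926 genes, those with detection p-values below 0.01 on no fewer than 24 of the 32 arrays. Groups were compared by limma 3.58.1 with Benjamini-Hochberg adjustment over the tested probes, and a gene was called at an FDR below 1%. Samples were grouped by the labels. The arrays' number limits the precision, and nothing says that the mice came from separate cages or litters. Differences between probes were tested by permuting the treatment labels of the arrays (100000 resamples, all possible ones within chip 3). Figures and summaries used Python 3.11.15 with matplotlib 3.10.9, pandas 2.3.3, scipy 1.17.1 and numpy 2.4.6. The fits were tested on simulated data. The members, gene lists and tests were chosen with earlier results of these data known. Named were the 7 genes, other listed oligodendrocyte genes called in any comparison, and the 5 genes most alike. Listed genes were also named where they stood at an end of their list's range or where they were the only tested or called members. A listed gene is not reported here. The build of the probe coordinates is not stated, so only distances are given. The alternatives are in the closing section.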

Additional observations from a re-analysis of the deposited data

Results flagged for a closer look

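Within the 5 combinations of treatment and chip, the 14 probes gave 70 groups of 4 to 8 mice, of which chance would set about 1 in 20 aside for a mouse far from its group. In 14 of them a mouse lay far from the others, and 10 of these were ethanol-treated mouse 13, whose probes share its array. Its values were 14.24 for Mbp, 12.19 at the Mbp probe from base 793, 10.16 for Mobp, 9.82 at the Mobp probe from base 3183, 10.12 for Mal, 9.0 at the Cnp probe from base 1291, 12.02 for Mag, 9.64 and 9.37 for Mog and 12.88 for Cldn11, each the highest of the 8 mice of chip 1. Control mouse 55 lay far above the other 3 controls of chip 3 for Mbp, at 13.96, and at the Mobp probe from base 695, at 8.66. Ethanol-treated mouse 28 was far below the rest of chip 2 at the Mbp probe from base 4610, at 8.93, and ethanol-treated mouse 47 was above the others of chip 3 for Mog, at 8.71, where those lay at 8.61 to 8.63. At the Mbp probe from base 4610 the change on chip 3 differed from that on the other chips by 0.62 on the log2 scale, by limma's test of the difference itself. The controls alone differed at this probe by -0.351 between chips 3 and 4.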

How the results depend on the processing

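No paired analysis was possible because ethanol-treated mice and controls share no mouse number. Of 74 counts of called genes under an alternative, 57 stayed equal or close to the count reported. Of 518 changes of single genes, 489 stayed on their side of the threshold. These include values that changed sign and passed in neither fit. With the probe of the lowest p-value in place of the brightest, 1 of the 7 genes was called over all arrays, 3 on chip 3, 1 on chips 1 and 2 against chip 4, 1 in the difference between chip 3 and the other chips and 1 between the controls, and Mbp turned its direction in 4 of these comparisons, to 0.604, -0.327, 0.618 and -0.351, because another of its probes was read. Reading the probe of the lowest p-value can only add calls, for any gene with several probes and not for these 7 alone. The share of all genes called under that rule is not given here, so these counts are no result about the 7. With an FDR of 10% and at least a 1.1-fold change, 1 gene was called over all arrays and 1 in the difference. The shares of all genes called by that rule in these comparisons are not given here, so neither count sets the 7 genes apart. On chip 3 that rule called 6, where 8.4% of all genes were called as lower. On chip 3, 0 were called with normexp background correction, where 0.214% of genes were, and 0 without a detection filter (1.25%). Leaving out single mice gave 0 to 2 calls on chip 3 and 0 to 1 over all arrays, the 1 being without ethanol-treated mouse 13. Over all arrays, 0 were called with chip as a fixed block (0.227% of genes) or a random block (0.719%), with position as a covariate (8.53%) or with median scaling (0.845%, 57 higher and 10 lower). The medians of the 7 genes over all arrays were -0.376, -0.129, 0.005 and -0.001 in those fits. With chip as a fixed block only chip 3 bears on treatment. Median scaling gave 251 higher and 9 lower on chips 1 and 2 against chip 4, in place of 366 and 510. Alternatives with mouse 13 left out together with chip or position, those of the comparison between controls, those without control mouse 55 in the difference between chips, and the comparisons between probes were chosen after seeing the data. Dim probes limit what can be said of lineage transcription factors, of which 3 of 11 passed the filter.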
